A study of Mus musculus with 6 samples.

Results

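Fgf4, Fgfr1, Fgfr2, Spry2, Spry4, Dusp4, Dusp6, Etv4, Etv5 and Spred1 are 10 genes of the fibroblast growth factor (FGF) and ERK pathway, and they were followed on Affymetrix expression arrays of mouse embryonic stem cells after siRNA against Ncl. A probe set, the group of short probes that reads 1 transcript region, was taken as a member when the platform annotation gave it exactly 1 of these symbols. This rule found 31 of 45101 probe sets, with 4 for Fgf4, 3 for Fgfr1, 3 for Fgfr2, 2 for Spry2, 4 for Spry4, 1 for Dusp4, 1 for Dusp6, 2 for Etv4, 3 for Etv5 and 8 for Spred1. All cells were of the E14Tg2a line, a feeder-independent mouse embryonic stem cell line, and all arrays are labelled 96 h, after transfection with a small interfering RNA (siRNA) duplex. Ncl siRNA #2 and Ncl siRNA #1 are different duplexes against Ncl, the gene of the nucleolar protein nucleolin, and the control duplex targets firefly luciferase, a gene that mouse cells lack. Each of the 3 groups held 2 arrays, so the number of arrays limits the precision. Nothing in the labels says that the arrays of a group came from separate cultures, and p-values therefore measure only the spread between these arrays. Ncl itself read 13.77 and 13.72 with Ncl siRNA #2, 13.77 and 13.74 with Ncl siRNA #1 and 14.21 and 14.21 with the control siRNA on its brightest probe set, and it fell by 0.46 on the log2 scale in the mean of both (SE 0.03, limma adjusted p = 5.98e-09).

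Embryonic stem cells make their own FGF4, which binds FGF receptors at the cell surface with the help of heparan sulphate chains. The receptors act through adaptor proteins and Ras on the kinases RAF, MEK and ERK, and this signal prepares the cells to leave the naive pluripotent state. Active ERK switches on genes for its own inhibitors, such as the Sprouty and SPRED proteins and the DUSP phosphatases, and genes for ETS factors of the Etv4 and Etv5 group. Transcripts of the inhibitors and of these factors are widely used as a readout of ERK signalling, although ERK itself was not measured here.

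The sequences before the start sites of 3 members are shown. The ligand gene Fgf4 fell and the phosphatase gene Dusp6 rose, and Etv5 has entries for more than 1 start. Dusp4, the other phosphatase gene of the 10, also rose. Promoter sequences of RefSeq on build GRCm38.p6 were matched to 6 of the 10 genes, with 7 start sites. No sequence was used for Fgfr1, Spry4, Dusp4 and Etv4. Entries on a chromosome that was left out of the matching were not read, so a gene without a sequence here may still have an entry. Each line gives the 250 bases before the start, 5′ to 3′ on the strand of the gene, with GC boxes in capitals.
Fgf4, chr7:144861136-144861385 (+): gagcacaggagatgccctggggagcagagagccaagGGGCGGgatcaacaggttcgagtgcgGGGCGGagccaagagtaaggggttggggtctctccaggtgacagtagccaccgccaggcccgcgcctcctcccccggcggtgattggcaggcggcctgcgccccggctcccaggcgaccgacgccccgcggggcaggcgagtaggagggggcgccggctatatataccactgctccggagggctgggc
Dusp6, chr10:99262981-99263230 (+): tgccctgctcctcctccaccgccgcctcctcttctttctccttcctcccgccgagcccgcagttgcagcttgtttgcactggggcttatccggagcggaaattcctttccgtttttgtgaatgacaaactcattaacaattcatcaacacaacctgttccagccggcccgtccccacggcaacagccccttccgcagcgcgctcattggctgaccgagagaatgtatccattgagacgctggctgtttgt
Etv5, chr16:22439571-22439820 (-): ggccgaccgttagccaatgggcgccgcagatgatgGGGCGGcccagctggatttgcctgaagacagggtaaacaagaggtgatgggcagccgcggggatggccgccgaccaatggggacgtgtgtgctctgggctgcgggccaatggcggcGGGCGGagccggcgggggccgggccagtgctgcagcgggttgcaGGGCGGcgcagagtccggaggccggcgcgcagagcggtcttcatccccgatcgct
Etv5, second entry, chr16:22438369-22438618 (-): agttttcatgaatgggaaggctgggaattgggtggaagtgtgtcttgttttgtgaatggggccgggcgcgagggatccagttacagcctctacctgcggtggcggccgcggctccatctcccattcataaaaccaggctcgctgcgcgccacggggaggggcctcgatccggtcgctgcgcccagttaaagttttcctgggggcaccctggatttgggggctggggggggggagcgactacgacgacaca
The motifs searched, on both strands, were the GC box GGGCGG, the ETS sequence CCGGAA and the AP-1 site TGANTCA. Only GC boxes were found, so no match overlapped one of another motif. The GC box was found in the Fgf4 window with 2 matches, in the first Etv5 window with 3 and in the Spred1 window with 2, against 32.7% of all 32851 windows with a match. The ETS sequence CCGGAA, which 12.0% of all windows hold, and the AP-1 site, which 6.75% hold, had no match in the 7 windows. Shorter or other forms of an ETS site were not searched. Such matches describe the letters in these windows and are no evidence of binding.

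On the brightest probe set of each gene, Fgfr1, Fgfr2, Dusp4, Dusp6 and Etv4 rose and Fgf4 and Spry4 fell with each Ncl siRNA, whereas Spry2 and Spred1 did not pass with either. The test was limma's moderated test on all 45037 probe sets that are not array controls, with Benjamini-Hochberg adjustment over all of them and a threshold of 0.05. With Ncl siRNA #2, 5 of 10 genes rose, 2 fell and 3 were not called, where 16.7% of 18193 genes rose and 20.0% fell. With Ncl siRNA #1, 6 rose, 2 fell and 2 were not called, where 18.9% of genes rose and 15.4% fell. The brightest probe sets of the 10 genes read above the median signal on every array. In a fit without probe sets below the median signal, 52.5% of probe sets passed with Ncl siRNA #2 and 49.1% with Ncl siRNA #1, up and down together. Over all 31 probe sets, 10 rose and 6 fell with Ncl siRNA #2, beside 13.0% and 15.5% of all probe sets, and 13 rose and 6 fell with Ncl siRNA #1, beside 14.6% and 12.5%. The same 10 probe sets rose with each duplex and the same 6 fell, beside 11.0% and 10.1% of all probe sets. The median change over the 10 genes was 0.31 with Ncl siRNA #2 and 0.45 with Ncl siRNA #1, and over all genes it was -0.04 and -0.05. On brightest probe sets, 14.6% of all genes rose with each siRNA and 13.1% fell with each. In 14 of the 31 probe sets all 4 Ncl siRNA arrays read above both control arrays, and in 7 all 4 read below, as 20.1% and 24.0% of all probe sets did. Both comparisons use the same control arrays, so the siRNAs are not independent of each other in these counts.

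**Figure D1:**
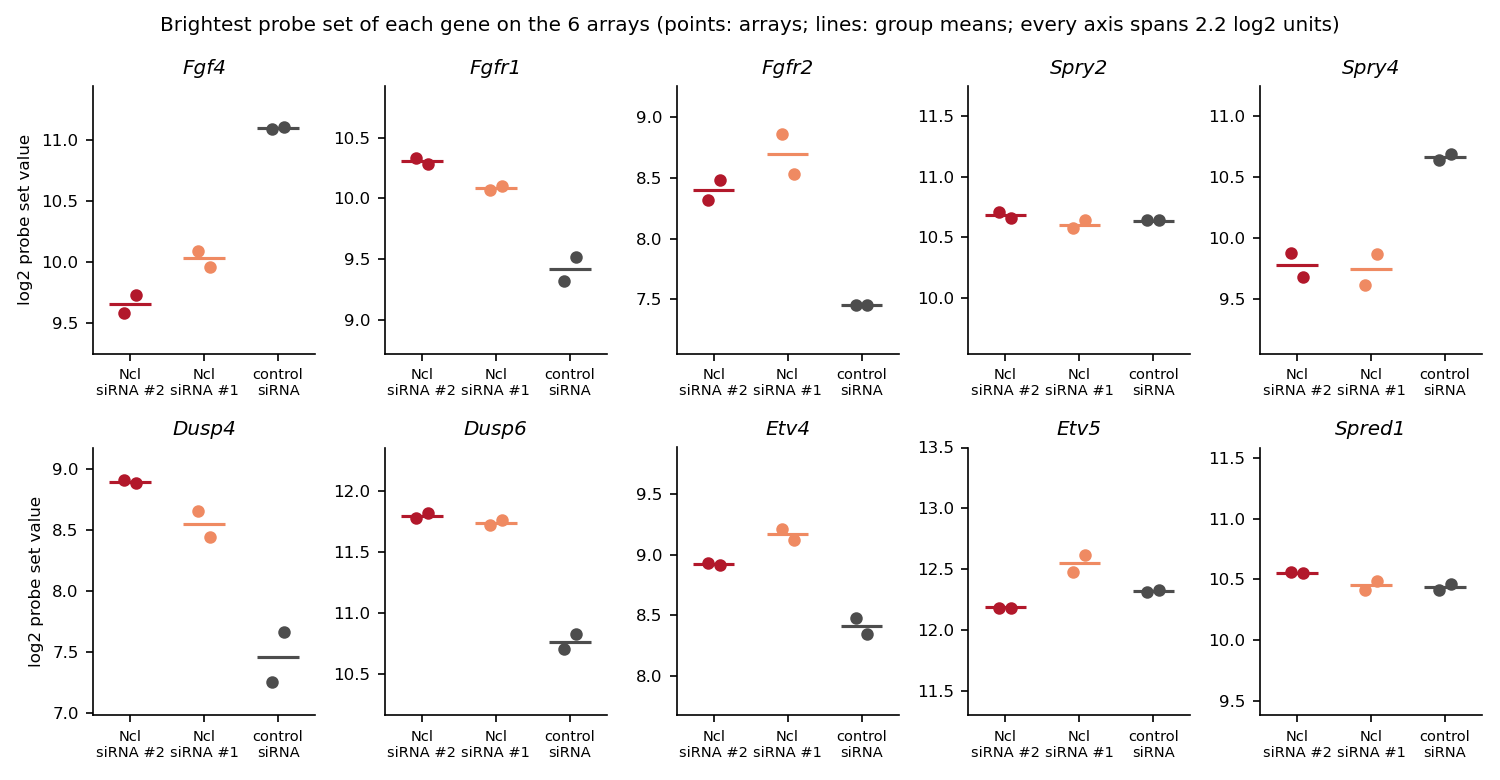
The log2 value of the brightest probe set of each of the 10 genes is plotted for every array (points) with the group means (lines), from Ncl siRNA #2 at the left to control siRNA at the right, and every vertical axis spans the same range. Fgf4 and Spry4 read lower in all 4 Ncl siRNA arrays, Fgfr1, Fgfr2, Dusp4, Dusp6 and Etv4 read higher in all 4, and Spry2 and Spred1 overlap with the control arrays.

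Fgf4 encodes the FGF ligand that embryonic stem cells secrete. Its brightest probe set, 1420086_x_at, read 9.58 and 9.73 with Ncl siRNA #2, 10.09 and 9.96 with Ncl siRNA #1 and 11.09 and 11.11 in the control arrays. The 3 groups did not overlap and stood in the order control, Ncl siRNA #1, Ncl siRNA #2 from high to low. Fgf4 fell to 36.7% of control with Ncl siRNA #2 (log2 -1.45, SE 0.08, limma adjusted p = 2.99e-10) and to 47.5% with Ncl siRNA #1 (log2 -1.07, SE 0.08, limma adjusted p = 1.47e-08). Probe set 1420085_at, designed on the same sequence record, gave -1.49 and -1.04, and the dimmer 1449729_at gave -1.64 (SE 0.21) and -1.11 (SE 0.21). The change was smaller on 1450282_at, at -0.59 (limma adjusted p = 0.00404) and -0.56 (limma adjusted p = 0.00612), and on this probe set both calls were lost without control replicate 2 (-0.41, limma adjusted p = 0.0947, and -0.38, limma adjusted p = 0.122).

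Both receptor genes rose on their brightest probe sets. Fgfr1, the main FGF receptor of embryonic stem cells, read 10.33 and 10.28 with Ncl siRNA #2, 10.07 and 10.10 with Ncl siRNA #1 and 9.32 and 9.52 in the control arrays on 1424050_s_at. All 4 Ncl siRNA arrays lay above both control arrays, and Fgfr1 rose 1.85-fold with Ncl siRNA #2 (log2 0.89, SE 0.08, limma adjusted p = 2.17e-07) and 1.59-fold with Ncl siRNA #1 (log2 0.67, SE 0.08, limma adjusted p = 7.08e-06). The other Fgfr1 probe sets moved further. On 1425911_a_at the arrays read 8.12 and 8.26 with Ncl siRNA #2, 8.37 and 7.96 with Ncl siRNA #1 and 5.42 and 5.55 in the control arrays, a rise of 6.52-fold (log2 2.70, SE 0.15, limma adjusted p = 3.36e-10) and 6.40-fold (log2 2.68, SE 0.15, limma adjusted p = 5.09e-10). This was the change of greatest size among the 31 probe sets with either duplex. On 1436551_at the rise was 2.92-fold with Ncl siRNA #2 and 2.59-fold with Ncl siRNA #1. Fgfr2, the receptor that primitive endoderm and trophoblast cells also use, read 8.32 and 8.48 with Ncl siRNA #2, 8.86 and 8.53 with Ncl siRNA #1 and 7.45 and 7.45 in the control arrays on 1433489_s_at. It rose 1.93-fold (log2 0.95, SE 0.12, limma adjusted p = 9.82e-06) and 2.37-fold (log2 1.25, SE 0.12, limma adjusted p = 5.31e-07). On 1420847_a_at Fgfr2 passed with Ncl siRNA #1 (0.68, limma adjusted p = 0.00393; 0.51 and limma adjusted p = 0.0633 without control replicate 2) and not with Ncl siRNA #2 (0.33, 95% confidence interval -0.01 to 0.67). The dim 1443211_at, between 4.12 and 4.77 on all arrays, passed with neither.

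Both phosphatase genes rose with each duplex. Dusp6, the cytoplasmic phosphatase specific for ERK, read 11.78 and 11.82 with Ncl siRNA #2, 11.72 and 11.76 with Ncl siRNA #1 and 10.70 and 10.83 in the control arrays. The spread within each group was small beside the distance of the Ncl siRNA arrays from the control arrays. Dusp6 rose 2.05-fold with Ncl siRNA #2 (log2 1.03, SE 0.06, limma adjusted p = 8.91e-10) and 1.97-fold with Ncl siRNA #1 (log2 0.98, SE 0.06, limma adjusted p = 2.24e-09). Dusp4, a nuclear phosphatase of ERK and other MAP kinases, read 8.91 and 8.89 with Ncl siRNA #2, 8.66 and 8.44 with Ncl siRNA #1 and 7.25 and 7.66 in the control arrays. It rose 2.72-fold (log2 1.44, SE 0.13, limma adjusted p = 1.76e-07) and 2.13-fold (log2 1.09, SE 0.13, limma adjusted p = 5.55e-06). Each of these genes had 1 probe set only, so no other probe set could be set beside it.

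Sprouty and SPRED genes, which encode inhibitors acting between the receptor and RAF, did not move as a group. Spry4 fell on its brightest probe set, 1445669_at, which read 9.88 and 9.68 with Ncl siRNA #2, 9.61 and 9.87 with Ncl siRNA #1 and 10.64 and 10.69 in the control arrays. It stood at 54.1% of control with Ncl siRNA #2 (log2 -0.89, SE 0.09, limma adjusted p = 9.89e-07) and at 52.7% with Ncl siRNA #1 (log2 -0.93, SE 0.09, limma adjusted p = 7.59e-07). On 1440867_at Spry4 fell by 0.52 with Ncl siRNA #2 (limma adjusted p = 0.00152) and by 0.32 with Ncl siRNA #1 (limma adjusted p = 0.0429). The second of these calls was lost in 4 of the 6 fits that left out 1 array, namely without control replicate 1 (-0.20), without Ncl siRNA #1 replicate 2 (-0.28) and without either Ncl siRNA #2 array (-0.32). Probe sets 1422021_at (-0.29 and -0.31) and 1422020_at (0.05 and 0.11) did not pass. The 4 Spry4 probe sets therefore gave changes of unequal size, and all of the calls among them were downward.

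Spry2 gave unequal readings on its pair of probe sets. The brighter, 1436584_at, read 10.71 and 10.66 with Ncl siRNA #2, 10.58 and 10.64 with Ncl siRNA #1 and 10.64 and 10.64 in the control arrays, and it did not pass with either (0.05, 95% confidence interval -0.09 to 0.18, and -0.03, -0.17 to 0.11). The dimmer, 1421656_at, read 8.39 and 8.49, 8.44 and 8.36, and 7.71 and 7.58 in the same order of groups. On it Spry2 rose by 0.80 with Ncl siRNA #2 (SE 0.11, limma adjusted p = 1.74e-05) and by 0.76 with Ncl siRNA #1 (SE 0.11, limma adjusted p = 3.61e-05). With the mean of both probe sets Spry2 passed with each duplex (0.42, limma adjusted p = 0.000332, and 0.36, limma adjusted p = 0.00112). Whether Spry2 transcripts changed thus depends on the probe set that is read.

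Spred1, whose product holds back the activation of RAF, had the most probe sets. On the brightest, 1423160_at, it read 10.56 and 10.55 with Ncl siRNA #2, 10.41 and 10.49 with Ncl siRNA #1 and 10.41 and 10.46 in the control arrays, with differences of 0.12 (95% confidence interval -0.02 to 0.26) and 0.02 (-0.13 to 0.16). Of its 8 probe sets only 1428777_at passed in the comparisons of each duplex with control, at 0.52 with Ncl siRNA #2 (limma adjusted p = 0.0194) and 0.60 with Ncl siRNA #1 (limma adjusted p = 0.00886). The call with Ncl siRNA #2 was lost without control replicate 1 (0.53), control replicate 2 (0.51), Ncl siRNA #2 replicate 1 (0.47) or Ncl siRNA #2 replicate 2 (0.58). The other 7 ranged from -0.30 to 0.19 with Ncl siRNA #2 and from -0.39 to 0.28 with Ncl siRNA #1. One of them, 1423161_s_at, passed in the mean of both duplexes (0.20, limma adjusted p = 0.0447; 0.058 with the replicate number as a block). This call was lost in 5 of the 6 fits that left out 1 array, namely without control replicate 1 (0.14), control replicate 2 (0.26), Ncl siRNA #1 replicate 1 (0.16), Ncl siRNA #2 replicate 1 (0.19) or Ncl siRNA #2 replicate 2 (0.21). It was also lost with arrays centred on their medians (0.17, limma adjusted p = 0.123) and with variances without a trend (limma adjusted p = 0.173). Among the 7, 1443652_x_at and 1445228_at lay below the lower quartile of the probe sets on all 6 arrays.

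Etv4 and Etv5, ETS transcription factors that ERK signalling induces, gave unequal results. Etv4 read 8.93 and 8.91 with Ncl siRNA #2, 9.21 and 9.12 with Ncl siRNA #1 and 8.48 and 8.35 in the control arrays on 1423232_at. It rose 1.42-fold (log2 0.51, SE 0.09, limma adjusted p = 0.000425) and 1.69-fold (log2 0.75, SE 0.09, limma adjusted p = 9.71e-06). The dimmer 1443381_at did not pass, at 0.05 and 0.17. Etv5 split the duplexes. Its brightest probe set, 1428142_at, read 12.18 and 12.18 with Ncl siRNA #2, 12.48 and 12.62 with Ncl siRNA #1 and 12.31 and 12.33 in the control arrays, so that the control arrays lay between the Ncl siRNA groups. With Ncl siRNA #2 the difference of -0.13 did not pass (95% confidence interval -0.24 to -0.02, limma adjusted p = 0.0757), and with Ncl siRNA #1 Etv5 rose by 0.23 (SE 0.05, limma adjusted p = 0.00291). On 1450082_s_at Etv5 rose with each duplex, by 0.23 (limma adjusted p = 0.0291) and 0.68 (limma adjusted p = 2.45e-06), and on 1420998_at it rose with Ncl siRNA #1 by 0.72 (limma adjusted p = 2.4e-05) and read 0.22 with Ncl siRNA #2 (limma adjusted p = 0.109).
The Ncl siRNA #2 call on 1450082_s_at was lost without control replicate 1 (0.15), Ncl siRNA #2 replicate 1 (0.27) or Ncl siRNA #2 replicate 2 (0.19). The Ncl siRNA #1 call on the brightest probe set was lost when variances were fitted without a trend (limma adjusted p = 0.147). The Ncl siRNA #2 difference on that probe set passed with each array centred on its median (-0.18, limma adjusted p = 0.0164), without probe sets below the median signal (limma adjusted p = 0.0453), with only the arrays compared (limma adjusted p = 0.0170) and without Ncl siRNA #1 replicate 1 (limma adjusted p = 0.0159) or replicate 2 (limma adjusted p = 0.0162).

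**Figure D2:**
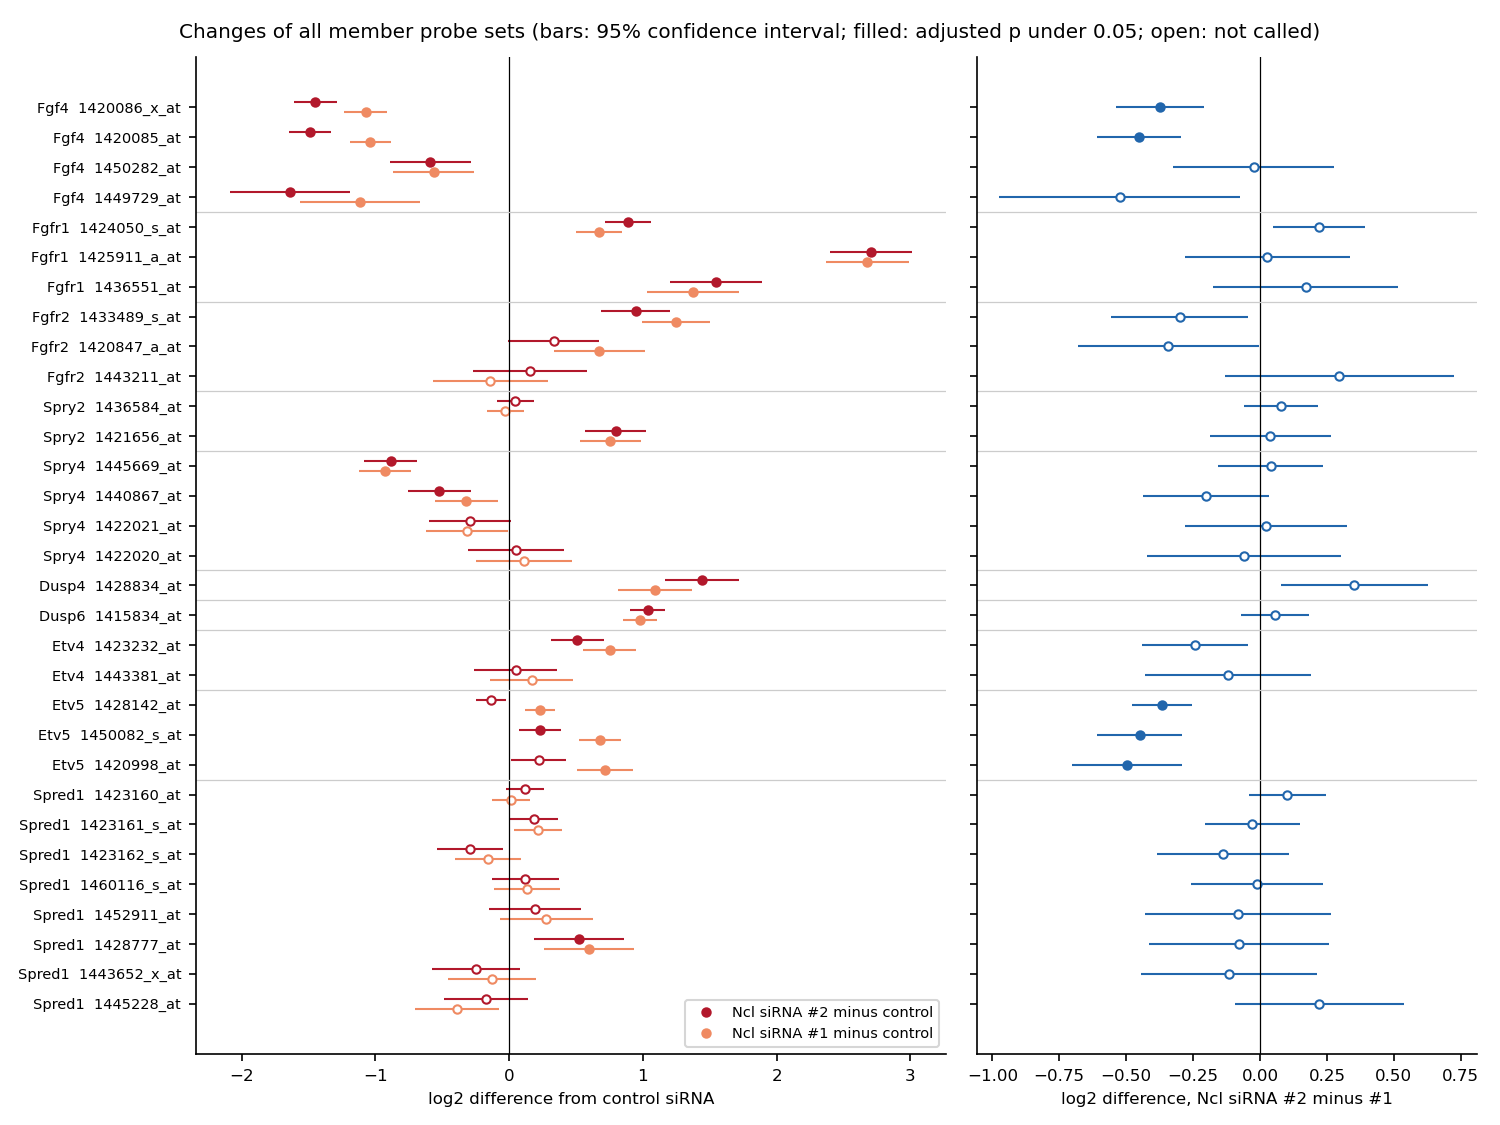
The left panel gives the log2 difference of each of the 31 probe sets from control siRNA with Ncl siRNA #2 (upper, dark red) and Ncl siRNA #1 (lower, orange), and the right panel gives Ncl siRNA #2 minus Ncl siRNA #1. Bars are 95% confidence intervals of single probe sets and filled points passed the adjusted threshold, with 1425911_a_at of Fgfr1 farthest to the right and Fgf4 and Etv5 as the genes with filled points in the right panel.

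The duplexes were then compared with each other. The log2 differences of this comparison use no control array, but its SEs, intervals and p-values rest on a spread estimated over all arrays, the control arrays included. On the brightest probe sets 2 of 10 genes were lower with Ncl siRNA #2 and none higher in limma's test, against 3.11% of genes lower and 1.45% higher. At an unadjusted p under 0.05 there were 4 lower and 2 higher. Of the 31 probe sets 5 were lower and 0 higher, beside 1.95% and 0.959% of all probe sets, and at an unadjusted p under 0.05 limma gave 9 lower and 2 higher. In 8 probe sets both Ncl siRNA #2 arrays read above both Ncl siRNA #1 arrays and in 9 both read below, as 21.3% and 26.9% of all probe sets did. Fgf4 was lower with Ncl siRNA #2 than with Ncl siRNA #1 by 0.37 (SE 0.08, limma adjusted p = 0.0127) on 1420086_x_at and by 0.45 (SE 0.07, limma adjusted p = 0.00225) on 1420085_at. Its other probe sets did not pass, at -0.02 and -0.52. Etv5 was lower with Ncl siRNA #2 on all 3 of its probe sets, by 0.37 (SE 0.05, limma adjusted p = 0.000793), 0.45 (SE 0.08, limma adjusted p = 0.0028) and 0.50 (SE 0.10, limma adjusted p = 0.00892). For Dusp4 the difference of 0.35 (95% confidence interval 0.08 to 0.63), for Fgfr2 that of -0.30 (-0.56 to -0.04), for Etv4 that of -0.24 (-0.44 to -0.04) and for Fgfr1 that of 0.22 (0.05 to 0.39) did not pass after adjustment. The intervals were narrower for Dusp6 (0.06, -0.07 to 0.18), Spry2 (0.08, -0.06 to 0.21) and Spred1 (0.10, -0.04 to 0.25), and for Spry4 the difference was 0.04 (-0.16 to 0.23).
Calls between the duplexes depended on the variance model and on single arrays. With variances fitted without a trend no probe set of the 10 genes passed in limma's test, although 7 were lower and 0 higher at an unadjusted p under 0.05. The Fgf4 call on 1420086_x_at was lost without Ncl siRNA #1 replicate 1 (-0.31, limma adjusted p = 0.0777) or Ncl siRNA #2 replicate 1 (-0.30, limma adjusted p = 0.311), and that on 1420085_at without Ncl siRNA #2 replicate 1 (-0.44, limma adjusted p = 0.0574). The Etv5 call held in all fits that left out 1 array on 1428142_at, was lost without Ncl siRNA #2 replicate 1 on 1450082_s_at (-0.41, limma adjusted p = 0.0920), and was lost without Ncl siRNA #1 replicate 1 (-0.39), Ncl siRNA #2 replicate 1 (-0.48) or Ncl siRNA #2 replicate 2 (-0.51) on 1420998_at.

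The arrays differed in more than these genes, and the values that move with them are given here once. The stem cell label was met by the transcripts, since Pou5f1, Nanog, Sox2, Zfp42 and Esrrb, markers of embryonic stem cells, averaged 11.97 and 11.96 with Ncl siRNA #2, 12.25 and 12.20 with Ncl siRNA #1 and 12.61 and 12.59 in the control arrays. Both control arrays also held lung transcripts. Scgb1a1, which club cells of the airway secrete, read 3.80 and 4.01 with Ncl siRNA #2, 3.29 and 3.69 with Ncl siRNA #1 and 12.96 in both control arrays. All 5 airway markers fell in the mean of both Ncl siRNAs, with list means of 3.83 to 4.26 in the Ncl siRNA arrays and 8.88 to 9.05 in the control arrays, and 3 of them lay below the lower quartile in each Ncl siRNA group. Of 4 measured alveolar markers 3 fell, of 5 lung mesenchyme markers 5 fell, of 5 heart muscle markers 5 fell, of 5 endothelial markers 3 fell and 2 rose, and of 5 leukocyte markers 1 fell and 1 rose. All 5 trophectoderm markers rose. Their list means were 10.08 and 10.06 with Ncl siRNA #2, 9.47 and 9.32 with Ncl siRNA #1 and 7.02 and 6.84 in the control arrays. Between the duplexes 3 of these 5 markers passed, each higher with Ncl siRNA #2. Poly-A controls, bacterial RNAs added before labelling, averaged 8.42 with Ncl siRNA #2, 8.71 with Ncl siRNA #1 and 7.66 in the control arrays. Hybridisation controls averaged 11.16 with Ncl siRNA #2, 11.23 with Ncl siRNA #1 and 12.03 in the control arrays, and control probe sets for small-subunit ribosomal RNA read 13.11 on average with Ncl siRNA #2, 13.08 with Ncl siRNA #1 and 12.10 in the control arrays. Etv5, Fgfr2, Spry2 and Spry4 are examples of members known to be expressed in lung, and Fgfr2 in trophectoderm derivatives. These examples are not a full list and do not set the other members apart. In bulk RNA, fewer cells of a type and less RNA per cell cannot be told apart, and the part of other cell types in the changes against control was not tested. No comparison with control can be made without these control arrays. The log2 differences between the duplexes do not use them, although the tests of these differences share an estimate of the spread to which the control arrays contribute.

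**Figure D3:**
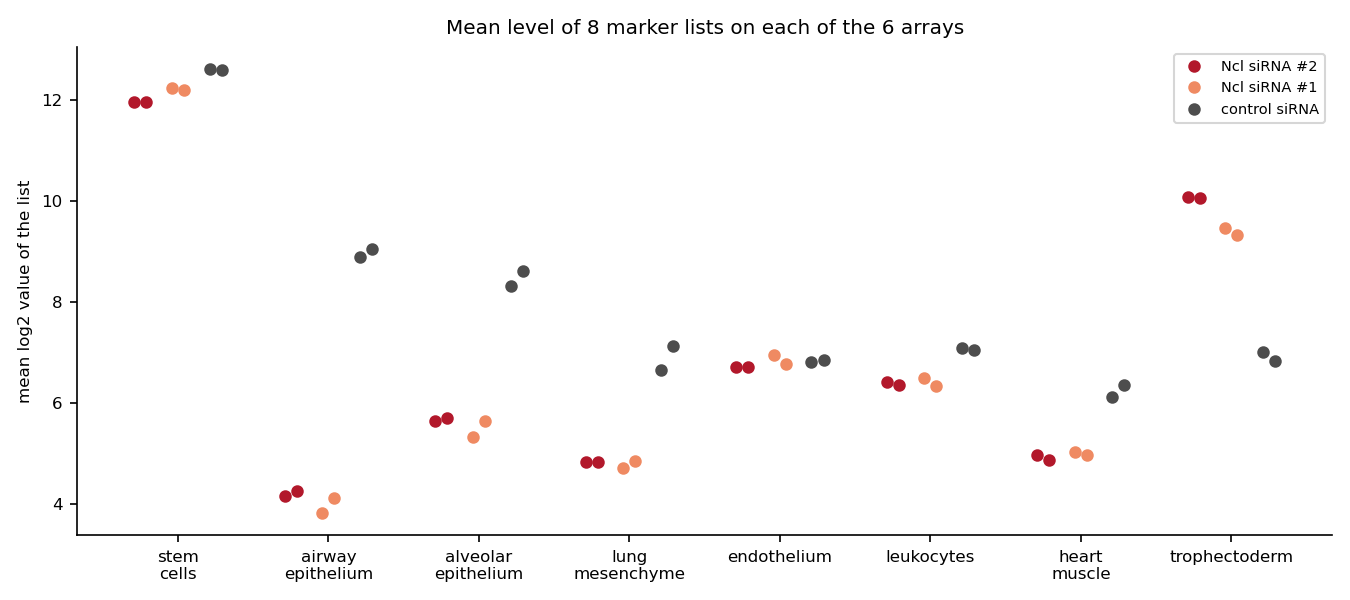
Mean log2 value of 8 lists of marker genes on each of the 6 arrays, with Ncl siRNA #2 at the left, Ncl siRNA #1 in the middle and control siRNA at the right of each list. Airway, alveolar, lung mesenchyme and heart muscle lists are higher in both control arrays, and the trophectoderm list is higher in all 4 Ncl siRNA arrays.

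Other genes of the pathway were read by role, in the mean of both Ncl siRNAs against control. Of 92 such genes 81 had a probe set of their own, of which 33 rose, 11 fell and 37 were not called, with 19.3% of all genes that rose and 19.9% that fell. Their median change was 0.12, against -0.05 for all genes. The remaining genes of these lists were not analysed here.

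Among 17 other FGF ligands 2 rose and 4 fell, with a median of -0.22. Fgf5, the ligand that marks the primed epiblast, read 6.51 and 6.42 with Ncl siRNA #2, 7.54 and 7.41 with Ncl siRNA #1 and 4.58 and 4.17 in the control arrays. Its rise was 2.60 (SE 0.15, limma adjusted p = 5.64e-10). Fgf1, a ligand that binds all FGF receptors, read 8.43 and 8.46, 7.33 and 7.30, and 6.02 and 5.69 in the same order, and rose by 2.02 (SE 0.12, limma adjusted p = 7.79e-10). Thus Fgf1 and Fgf5 were both above control, but Fgf1 stood highest with Ncl siRNA #2 and Fgf5 with Ncl siRNA #1. Fgf17, a ligand of the Fgf8 subfamily, fell by 1.24 (SE 0.11), and Fgf15, an endocrine FGF, fell by 0.99 (SE 0.10). Fgf3 and Fgf10, named after their values were seen, fell by 0.57 and 0.54. In 8 other receptor genes 2 rose and 6 were not called (median -0.07). They were Fgfr4 and Fgfrl1, a receptor without a kinase domain. Fgfr4 read 0.61 (SE 0.14, limma adjusted p = 0.00212) on its brightest of 5 probe sets but -0.05 as the mean of all 5. Fgfrl1, named after its value was seen, read 0.30 (SE 0.09). Each passed with Ncl siRNA #2 (0.81 and 0.34) and not with Ncl siRNA #1 (0.40, limma adjusted p = 0.0702, and 0.26, limma adjusted p = 0.0794). Fgfr3 did not pass (-0.14, limma adjusted p = 0.501).

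Heparan sulphate genes showed 10 that rose, 2 that fell and 3 that were not called out of 15 measured (median 0.42). Sdc4, a cell-surface proteoglycan that carries heparan sulphate, read 12.52 and 12.57 with Ncl siRNA #2, 12.60 and 12.49 with Ncl siRNA #1 and 9.84 and 9.82 in the control arrays, and rose 6.55-fold (log2 2.71, SE 0.05, limma adjusted p = 3.41e-16). Gpc4, a glypican, rose 4.40-fold (log2 2.14, SE 0.07), and Hs6st2 and Hs6st1, which add sulphate to the chains, rose by 0.76 (SE 0.12) and 0.61 (SE 0.10). Ext1, a chain-building enzyme, and Sulf1, which removes sulphate from finished chains, fell by 0.39 and 0.37 and were named after their values were seen. Each passed with Ncl siRNA #2 (-0.58 and -0.57) and not with Ncl siRNA #1 (-0.20, limma adjusted p = 0.0943, and -0.17, limma adjusted p = 0.116). Ext2 and Sulf2, also named after their values were seen, rose by 0.37 and 0.48. Among 14 adaptors and kinases 4 rose, 3 fell and 7 were not called (median -0.00). Sos2, an exchange factor for Ras, rose by 1.58 (SE 0.10, limma adjusted p = 3.39e-09), and Araf, a RAF kinase, rose by 0.71 (SE 0.08, limma adjusted p = 2.91e-06). Smaller shifts were found for the adaptor Gab1, which rose by 0.24 and was named after its value was seen, for the adaptor Shc1, which rose by 0.31, for the kinase Map2k1, which fell by 0.26, for Sos1, which fell by 0.24, and for the adaptor Grb2, which fell by 0.23. Map2k2 (0.04, limma adjusted p = 0.739) and Ptpn11, the phosphatase SHP2 (-0.07, limma adjusted p = 0.487), did not pass. By duplex, Sos1 and Grb2 passed with Ncl siRNA #2 (-0.33 and -0.27) and not with Ncl siRNA #1 (-0.15, limma adjusted p = 0.229, and -0.19, limma adjusted p = 0.131).
The calls of Shc1, Map2k1, Sos1 and Grb2 were lost with variances without a trend (limma adjusted p = 0.056 for Shc1, 0.083 for Map2k1, 0.091 for Sos1 and 0.131 for Grb2). Each was also lost without 1 or more arrays, namely Shc1 (0.24) and Sos1 (-0.17) without control replicate 1, Shc1 (0.28) and Sos1 (-0.22) without Ncl siRNA #2 replicate 2, Map2k1 (-0.24) and Grb2 (-0.16) without control replicate 2, and Grb2 (-0.20) without Ncl siRNA #2 replicate 1.

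Of 15 other feedback inhibitors 7 rose, 2 fell and 6 were not called (median 0.29). Errfi1, an inhibitor of the EGF receptor, read 11.24 and 11.37 with Ncl siRNA #2, 10.59 and 10.50 with Ncl siRNA #1 and 8.91 and 8.84 in the control arrays, and rose 4.14-fold (log2 2.05, SE 0.06, limma adjusted p = 3.27e-13). The MAP kinase phosphatases Dusp1, Dusp5 and Dusp9 rose by 1.78 (SE 0.06), 1.70 (SE 0.10) and 1.49 (SE 0.07), and Dusp7, named after its value was seen, fell by 0.56 (SE 0.13). Spry1, another Sprouty gene, read 7.64 and 7.69 with Ncl siRNA #2, 7.86 and 7.82 with Ncl siRNA #1 and 8.26 and 8.29 in the control arrays, and fell by 0.53 (SE 0.09, limma adjusted p = 0.000268). Spred2 rose by 0.29 (SE 0.06, limma adjusted p = 0.000601), a call that was lost with the mean of its 5 probe sets (0.05, limma adjusted p = 0.615). Il17rd, the inhibitor also called Sef, read -0.02 (limma adjusted p = 0.913) on its brightest probe set but 0.34 as the mean of its 2 probe sets. Of 12 other target genes 8 rose and 4 were not called (median 0.52). Phlda1, a gene that growth factor signalling induces, read 11.49 and 11.53 with Ncl siRNA #2, 11.16 and 11.18 with Ncl siRNA #1 and 8.18 and 7.95 in the control arrays, and rose 9.67-fold (log2 3.27, SE 0.07, limma adjusted p = 1.7e-15). The AP-1 genes Fosl1 and Fos rose by 2.83 (SE 0.12) and 2.05 (SE 0.08), and Plaur, the urokinase receptor, rose by 1.49 (SE 0.07). Egr1, an early response gene, rose by 0.26 (SE 0.07, limma adjusted p = 0.00995), a call lost with variances without a trend (limma adjusted p = 0.105), without control replicate 1 (0.22) and without Ncl siRNA #2 replicate 2 (0.20). By duplex, Egr1 did not pass with Ncl siRNA #2 (0.11, limma adjusted p = 0.382) and rose by 0.40 with Ncl siRNA #1 (limma adjusted p = 0.00118). Ccnd1, the cyclin D1 gene, did not pass in the mean of both (0.12, limma adjusted p = 0.0808), but passed with quantile normalization (0.135, limma adjusted p = 0.0239) and without Ncl siRNA #1 replicate 2 (0.12, limma adjusted p = 0.0443). Against control Ccnd1 read -0.07 with Ncl siRNA #2 (limma adjusted p = 0.428) and rose by 0.30 with Ncl siRNA #1 (limma adjusted p = 0.000512). Myc did not pass (0.04, limma adjusted p = 0.719).

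**Figure D4:**
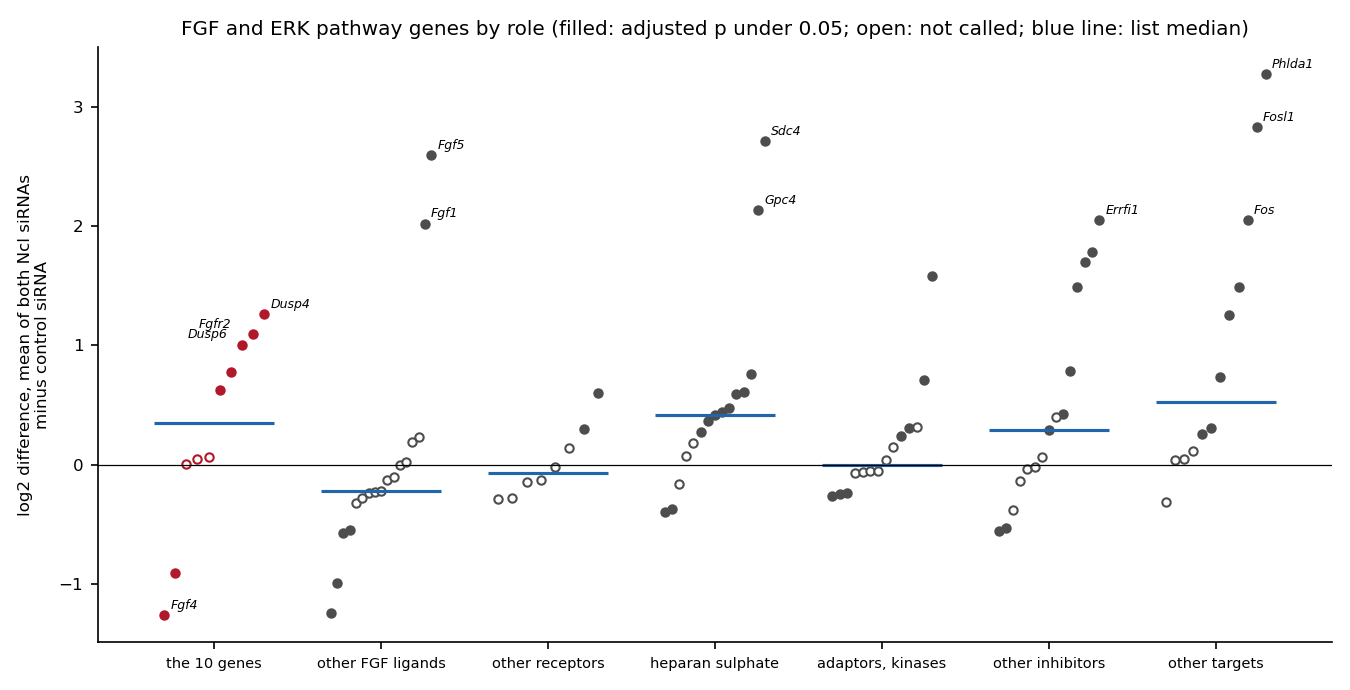
Each point is the log2 difference of 1 gene on its brightest probe set between the mean of both Ncl siRNAs and control siRNA, with the 10 genes at the left and 6 other pathway lists by role, filled where the adjusted threshold was passed. Blue lines are list medians, 0.35 for the 10 genes, 0.42 for heparan sulphate genes, 0.52 for other targets and -0.22 for other ligands.

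Genes whose values followed a member most closely over the 6 arrays were found by Pearson correlation among 8922 genes at or above the median signal. For Fgf4 these were Cox7a2 and Cpsf4 (r = 0.9993 for each), for Dusp6 they were Shb (r = 0.9994) and Tgfbr3 (r = 0.9993), and for Etv5 they were Tubgcp5 (r = 0.9939) and Zfp961 (r = 0.9824). For Fgfr1 they were Cercam (r = 0.9993) and Dnajc9 (r = 0.9989), for Dusp4 Tmem63b (r = 0.9987) and Irak1bp1 (r = 0.9981), and for Spry4 Tubb2b (r = 0.9974) and Gm2a (r = 0.9972). For Fgfr2 they were Clptm1l (r = 0.9997) and Chmp7 (r = 0.9990), and for Etv4 Tacc2 (r = 0.9972) and Ppm1d (r = 0.9967). Spry2 was nearest to Il17re (r = 0.9723) and Btg1 (r = 0.9703), and Spred1 to Csnk1a1 (r = 0.9783) and Gt(ROSA)26Sor (r = 0.9728), over arrays in which these members spanned only 0.13 and 0.14 log2 units. The points share 3 groups of 2 arrays, and for Fgf4 1400 of the genes had r above 0.95 and for Etv5 15 had, so such a likeness describes the order of the groups.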

How the data were processed

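Total RNA was extracted with an RNeasy kit and labelled with an Affymetrix IVT kit, per the labels' protocols. The authors deposited log2 probe set values, 1 column for each of the 6 arrays. Array medians lie between 5.73 and 5.79. The method of background correction, normalization and summarisation is not given in the sources used here. Of 45101 probe sets, 64 were array controls and 932 carried several symbols, of which 0 named a member. Symbols came from GEO's platform annotation.

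From these values limma 3.58.1 (R 4.3.3) estimated a mean for each group over 6 arrays and 45037 probe sets, letting variances follow mean signal (trend). Residual degrees of freedom were 3 and prior degrees of freedom 13. No filter on low values was applied. A gene stands for its probe set with 1 symbol and the highest mean over all arrays. Confidence intervals (95%) are per probe set and not adjusted. On simulated data for the mean contrast over 45037 probe sets, 9 of 67 changes of 0.5, 39 of 67 of 1 and 63 of 66 of 2 log2 units were found, with 5 false calls. Only these probe sets were changed in the simulation, whereas 31.5% of probe sets passed in the real mean contrast. The adjusted threshold was therefore stricter in the simulation, and its shares are not detection rates for the real data.

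Always named were the members and a fixed set of pathway genes. Up to 4 genes per list were added by size of change among those called in the same direction with each duplex. For each member the 2 genes of highest correlation were named. The members, lists and markers were chosen with earlier results of these data known. Alternatives were quantile normalization, median centring, 1 probe set per gene, the mean of a gene's probe sets, leaving out _x_at and _s_at or dim probe sets, other variance models, only the arrays compared, the replicate number as a block, and leaving out each array. The correlations of replicate deviations between groups were 0.016, 0.001 and 0.017, so no shared shift by replicate number was seen. They cannot show whether arrays of the same number were prepared together.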

Additional observations from a re-analysis of the deposited data

Results flagged for a closer look

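The effect of Ncl siRNA #2 differed from that of Ncl siRNA #1 by limma's test of the difference for 5 member probe sets and 14 other named genes. Differences are log2 values, Ncl siRNA #2 minus Ncl siRNA #1. For Fgf4 they were -0.37 on 1420086_x_at (limma adjusted p = 0.0127) and -0.45 on 1420085_at (limma adjusted p = 0.00225). For Etv5 they were -0.37 on 1428142_at, -0.45 on 1450082_s_at and -0.50 on 1420998_at (limma adjusted p from 0.000793 to 0.00892). Among the ligands the difference was 1.13 for Fgf1, -1.01 for Fgf5 and -0.49 for Fgf17, the last at a limma adjusted p of 0.0491. The inhibitors Errfi1, Dusp5 and Dusp1 read higher with Ncl siRNA #2, by 0.76, 0.69 and 0.50. Phlda1 was also higher with Ncl siRNA #2, by 0.34, and Ccnd1, the cyclin D1 gene, was lower, at -0.37 (limma adjusted p = 0.00113). Ext1 and Sulf1 were lower with Ncl siRNA #2, at -0.39 (limma adjusted p = 0.0171) and -0.39 (limma adjusted p = 0.00977). Of the stem cell markers, Esrrb, Nanog, Pou5f1 and Zfp42 were lower with Ncl siRNA #2, at -0.48, -0.27, -0.23 and -0.18 (limma adjusted p from 0.00149 to 0.0395). Markers of other cell types, outside the count of named genes, also differed. Of 5 trophectoderm markers 3 were higher with Ncl siRNA #2 and 2 were not called. The 3 were Krt18 at 1.08, Krt8 at 0.92 and Cdx2 at 0.84 (limma adjusted p from 1.73e-07 to 0.0076). Of 5 heart muscle markers Myh6 was lower, at -0.82 (limma adjusted p = 0.00779), and 4 were not called. Among all 81 measured pathway genes 7 were higher and 6 lower with Ncl siRNA #2, where 1.45% and 3.11% of all genes were. With 2 arrays per group no array could be tested as standing apart from its group.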

How the results depend on the processing

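Over 16 other settings, 601 of 630 values of the member genes kept direction and side of the threshold, 7 fell short of it, 9 newly passed and 13 changed sign. A gene was read on its brightest probe set, except where the setting averaged its probe sets or left that probe set out. Of 648 values of 12 further member probe sets 591 kept both, and of 495 values of named pathway genes 467 did. Sign changes with each array centred on its median were Spry2 with Ncl siRNA #2 (-0.0034) and in the mean of both (-0.024), and Fgfr1 1425911_a_at between the duplexes (-0.0083). With quantile normalization they were Fgf4 1450282_at (0.060) and Spred1 1423161_s_at (0.054) between the duplexes. With the mean of a gene's probe sets they were Spry2 with Ncl siRNA #1 (0.36), Etv5 with Ncl siRNA #2 (0.11), Spry4 (-0.050) and Spred1 (-0.017) between the duplexes, and Fgfr4 (-0.046), Map2k2 (-0.11) and Il17rd (0.34) in the mean of both. Without _x_at and _s_at probe sets Fgfr2 was not called with Ncl siRNA #2 (0.33, limma adjusted p = 0.147).

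Leaving out 1 array gave ranges that crossed 0 for Spred1 (-0.022 to 0.054) and Spry2 (-0.060 to 0.0002) with Ncl siRNA #1, and for Spry2 (-0.0066 to 0.024), Map2k2 (-0.027 to 0.11), Il17rd (-0.16 to 0.12) and Myc (-0.047 to 0.13) in the mean of both. Between the duplexes they did so for Spry4 (-0.093 to 0.17), Fgf4 1450282_at (-0.14 to 0.092), Fgfr1 1425911_a_at (-0.18 to 0.23), Spry2 1421656_at (-0.012 to 0.089) and Spred1 1423161_s_at (-0.12 to 0.061).

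Shares of called features moved most between the duplexes, where 2.91% of probe sets passed. They were 8.48% with 1 probe set per gene, 9.34% without dim probe sets, 0.238% with variances without a trend and from 0.633% to 13.4% with 1 array left out. Without dim probe sets 52.5%, 49.1% and 55.3% passed with Ncl siRNA #2, Ncl siRNA #1 and their mean. Members lower with Ncl siRNA #2 than with Ncl siRNA #1 numbered 1 with the mean of probe sets, 0 with variances without a trend (limma, 3 at an unadjusted p under 0.05) and 1 to 3 with 1 array left out, and member probe sets 0 and 1 to 7. With the replicate number as a block (replicate block), the member counts stayed within 1.5 times the main ones. Among the values followed in this way, the block ended the call of Spred1 1423161_s_at in the mean of both (0.20, limma adjusted p = 0.058) and no other.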
